A study of Homo sapiens with 6 samples.

Results

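The genes described here are 39 interferon-stimulated genes and factors of their induction outside the IFIT family, out of 23062 identifiers listed for each library. They were taken by gene symbol, and all 39 symbols were found. Type I and type III interferons bind receptors that carry the kinases JAK1 and TYK2, which phosphorylate STAT proteins. STAT2 and IRF9 are subunits of the factor ISGF3, which binds an interferon-stimulated response element (ISRE) in the promoters of its target genes. Many target genes encode proteins that recognise viral RNA, block virus entry or replication, or attach the ubiquitin-like protein ISG15 to other proteins, and tumor cell lines often express part of them without added interferon.

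DU145 is an androgen-independent prostate cancer cell line from a brain metastasis, labelled wild type. Compared were 3 control samples kept in MEM medium for 48 h and 3 samples exposed over 48 h to taraxasterol (TAX), a pentacyclic triterpene, at its IC50 for these cells. All 6 had serum and antibiotics in the medium. TAX was dissolved in DMSO, and whether the controls received DMSO is not stated, so TAX and its solvent cannot be told apart. No interferon or virus is named for either group, so the levels are taken as those of unstimulated cells. Nothing in the labels says whether the 3 samples of a group came from separate cultures, so p-values measure only the spread between these samples, which may be technical. In such bulk RNA, fewer cells that express a gene and less of its RNA per cell cannot be told apart.

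The deposited value of each gene was taken as FPKM, a fragment count scaled to transcript length and library depth. The summed FPKM was 322483 to 363724, the number of identifiers listed at 0 was 3997 to 4798, and read totals are unknown. The share of the 13 mitochondrially encoded genes was 11.2% to 15.8% of the sum. The summed FPKM of 5 epithelial markers was 428 to 545 in control and 555 to 606 in TAX libraries. KLK2 and KLK3, genes of androgen-dependent luminal cells, were at 0. Of 5 leukocyte markers CD3E was at 0, and the list summed to 0.178 to 0.412 in control and 0.235 to 0.419 in TAX libraries. Of 4 fibroblast markers COL1A2, DCN and LUM were at 0 and COL1A1 gave 1.89 to 2.08 FPKM in the controls and 1.42 to 1.48 FPKM after TAX, while 3 endothelial markers summed to at most 0.0368. The epithelial sum and COL1A1 did not overlap between the groups. Of the 5 epithelial markers KRT8 and CDH1 did overlap. The mean of CDH1 was lower after TAX (54.1 FPKM in control and 47.5 FPKM in TAX libraries), and the means of the other 4 were higher. The part of the epithelial markers and COL1A1 in the results below was not tested. Control replicate 3 stood apart, with the lowest value of the controls in 72.3% of all tested genes and in 20 of 27 tested interferon-stimulated genes.

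In control cells 8 of the 39 genes had a mean of at least 10 FPKM, 18 lay between 1 and 10 FPKM and 13 lay under 1 FPKM. The highest control means were those of ISG15 (37.1 ± 5.45), TRIM25 (32.9 ± 4.91), IFI6 (15.8 ± 2.16), OASL (14.2 ± 1.20) and STAT2 (14.2 ± 1.55 FPKM; SD, n = 3 each). ISG15 and TRIM25 overlapped each other, as did IFI6, OASL and STAT2, while every ISG15 or TRIM25 value lay above every value of the other 3. ISG15 stood above 86.3% of the 12359 tested genes by its control level. XAF1, a pro-apoptotic gene, was listed at 0 in all 6 libraries, and BST2, which encodes tetherin, was listed at 0 in 1 control and 2 TAX libraries. The genes thus ranged in control cells from the upper part of all expressed genes to those listed at 0.

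**Figure D1:**
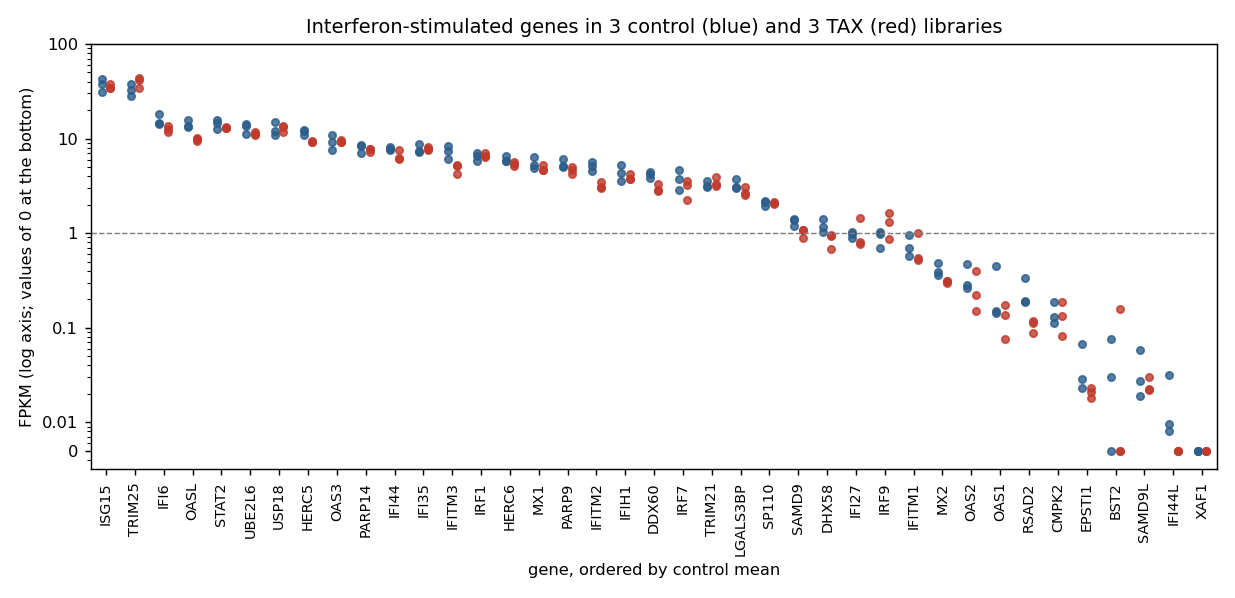
FPKM (log axis) of the 39 interferon-stimulated genes in 3 control (blue) and 3 TAX (red) libraries, 1 point per library, ordered by control mean, with a dashed line at 1 FPKM and values of 0 drawn at the bottom. ISG15 and TRIM25 lie highest in both groups, and the TAX points of IFITM2, IFITM3, OASL, DDX60 and HERC5 lie below their control points.

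The groups were compared by limma after conversion to log2(FPKM + 1), for the 12359 genes that reached 1 FPKM in 3 or more of the 6 libraries, with Benjamini-Hochberg adjustment over all of them. This scale understates the fold of weakly expressed genes. Of the 39 genes, 27 entered this comparison and 12 lay under the filter. The 39 genes were proposed with results of this same contrast known. Their differences are therefore given as a description, and nothing is read from the counts below.

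At an adjusted p under 0.05 (limma), 2 of the 27 genes, IFITM2 and OASL, were lower after TAX treatment, where 0.162% of all tested genes were. None was higher by this rule, where 0.316% of all genes were, while 1 was higher at an unadjusted p under 0.05. At an unadjusted p under 0.05, 8 genes were lower (IFITM2, OASL, DDX60, IFITM3, HERC5, IFI6, DHX58 and SAMD9), beside 2.41% of all genes, and TRIM25 was higher, where 7.73% of all genes were. DHX58 passed the filter only through the 3 controls, which favours a lower TAX value, so it lends no weight to that count. In 9 of the 27 genes, those 8 and HERC6, every TAX value lay below every control value, beside 3.34% of all genes, and in 0 every TAX value lay above, beside 14.6%. The log2 fold change was below 0 in 20 of 27 genes and in 30.9% of all tested genes, and its median was -0.139 in the 27 genes and 0.054 in all tested genes. The values of single genes ranged from -0.55 to 0.27.

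Scaling moved these counts. After each library was centred on its median, 4 of the 27 genes were called lower (IFITM2, OASL, HERC5 and DDX60), and over all genes 46 were called higher and 50 lower in place of 39 and 20. With any 1 of the 6 libraries left out, 0 of the 27 genes had an adjusted p under 0.05 (limma), and 6 to 10 were lower at an unadjusted p under 0.05, beside 1.73% to 5.59% of all genes. Without control replicate 3, 16 of the 27 genes did not overlap, beside 13.4% of all genes. The median log2(FPKM + 1) of the tested genes was 3.283 in control replicate 3 and 3.438 to 3.458 in the other libraries. The shares of all genes given above therefore depend on scaling too. The median log2 fold change of all tested genes was -0.003 after centring and 0.006 without control replicate 3, in place of 0.054. That of the 27 genes was -0.197 and -0.199, in place of -0.139.

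**Figure D2:**
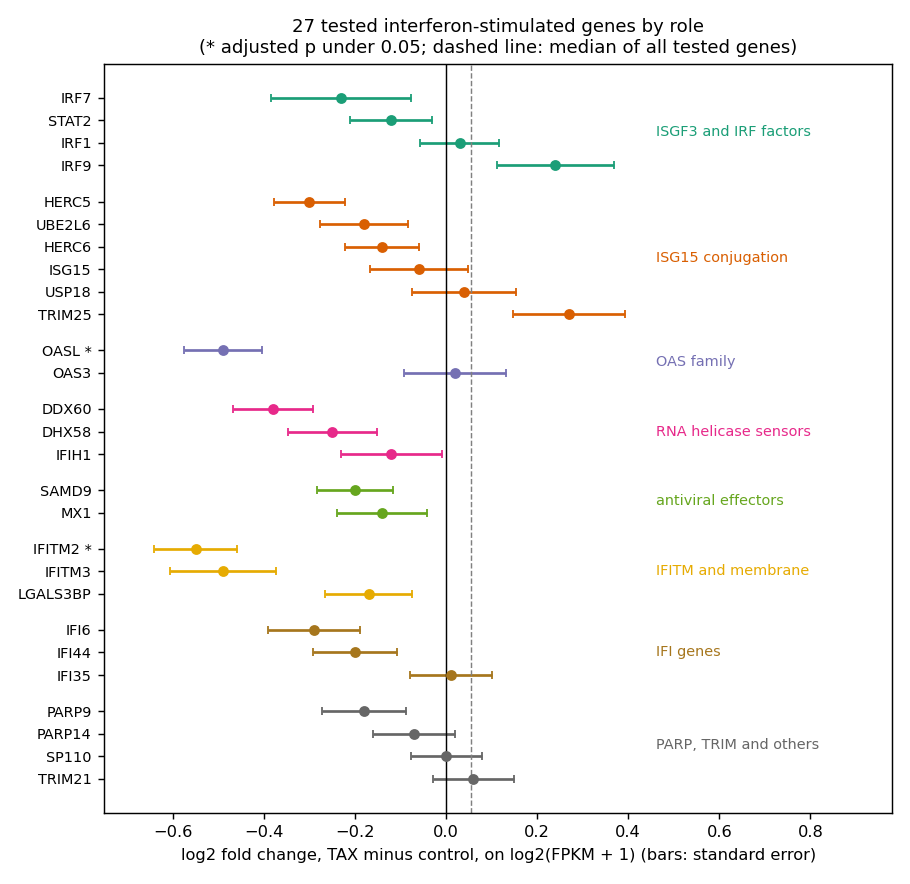
Log2 fold change (TAX minus control, on log2(FPKM + 1)) of the 27 tested interferon-stimulated genes, grouped by role, with standard errors as bars, a star at an adjusted p under 0.05 and a dashed line at 0.054, the median of all tested genes. IFITM2 and OASL carry the star, and TRIM25 (0.27) and IRF9 (0.24) lie furthest to the right.

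Promoter windows from 250 bases before to 50 bases after the start site, taken from RefSeq (GRCh38.p14), were found for 32 of the 39 genes and searched for the ISRE letters GAAA, any pair of bases and GAAA again (GAAA NN GAAA) on both strands, overlapping matches included. The motif was present in 18 of the 32 windows (56.2%), beside 3.65% of all 27305 windows and 2.64% of the windows of tested genes. The letters TTC NNN GAA of the GAS element, which binds STAT dimers, were present in 10 of the 32 windows (31.2%), beside 7.88% of all windows. Among the 27 tested genes, 13 had a window with the ISRE letters, 9 had a window without them and 5, with OASL and IFITM2 among them, had no window. Of the 13 genes, 5 were lower at an unadjusted p under 0.05, beside 2.41% of all tested genes, and the median log2 fold change was -0.17. Of the 9 genes 0 were lower and 1 was higher by the same rule, where 7.73% of all tested genes were higher. The median of the 9 was 0.00. Of the 5 genes without a window 3, DHX58 among them, were lower by that rule. At an adjusted p under 0.05 (limma) 2 of them were also lower, beside 0.162% of all tested genes. The median of the 5 was -0.25. This split rests on the contrast from which the genes were proposed and is a description. ISG15, IFIH1 and PARP14 hold the motif with overlapping groups, so not each gene with a match was lower at an unadjusted p under 0.05.

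The sites of the 5 genes that were lower at an unadjusted p (IFITM3, DDX60, HERC5, IFI6 and SAMD9) and of 3 genes with overlapping groups (ISG15, IFIH1 and PARP14) are shown 5′ to 3′ on the strand of the gene, with the letters of the ISRE match, or of its reverse complement, in capitals. Where an annotated exon, of the gene itself or of another, reached into the longer stretch around each upstream match, 30 bases are given.
IFITM3, chr11:320885-320914, minus strand: agGAAAAGGAAActgttgaGAAACCGAAAc
DDX60, chr4:168318786-168318815, minus strand: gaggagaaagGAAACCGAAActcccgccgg
HERC5, chr4:88457021-88457078, plus strand: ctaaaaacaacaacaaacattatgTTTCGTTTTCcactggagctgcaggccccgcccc
IFI6, chr1:27672252-27672309, minus strand: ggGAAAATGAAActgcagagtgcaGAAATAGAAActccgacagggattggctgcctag
SAMD9, chr7:93118082-93118139, minus strand: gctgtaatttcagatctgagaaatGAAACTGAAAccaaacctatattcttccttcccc
ISG15, chr1:1013360-1013417, plus strand: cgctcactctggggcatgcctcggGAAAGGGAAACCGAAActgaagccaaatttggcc
IFIH1, chr2:162318686-162318715, minus strand: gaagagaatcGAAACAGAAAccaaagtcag
PARP14, chr3:122680800-122680829, plus strand: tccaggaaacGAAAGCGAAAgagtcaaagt
IFITM3 and IFI6 carry a pair of separate matches in the stretch shown, and in ISG15 a pair of matches overlaps. The whole windows of HERC5, IFI6 and IFIH1 hold 3 matches each. The core GAAACCGAAA stands in IFITM3, DDX60 and ISG15. A match is a run of letters and does not show that a factor is bound there in DU145 cells.

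The IFITM proteins sit in the plasma and endosomal membranes and hinder fusion of enveloped viruses. IFITM2 spans bases 307631 to 315272 of chromosome 11 (GENCODE 29 annotation of GRCh38). It had 5.17, 5.69 and 4.59 FPKM in the controls (given here and below in the order of replicates 1 to 3) and 2.98, 3.10 and 3.46 FPKM in the TAX libraries. The groups did not overlap, and the TAX mean was 38.3% lower. The log2 fold change of IFITM2 was -0.55 (standard error 0.092, limma, adjusted p = 0.0315), and it was called in 6 of 14 alternative analyses, with adjusted p from 0.0149 to 0.192.

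IFITM3, on the opposite strand from 319669 to 327537, had 8.28, 7.41 and 6.05 FPKM in the controls and 4.17, 5.09 and 5.31 FPKM after TAX. These groups did not overlap either, with the lowest control near the highest TAX library. The log2 fold change was -0.49 (standard error 0.116, adjusted p = 0.144 from limma). IFITM1, whose annotated span on the strand of IFITM2 lies inside that of IFITM2, was under the filter with 0.578, 0.945 and 0.689 FPKM in the controls and 1.01, 0.521 and 0.551 FPKM after TAX, and its groups overlapped. The IFITM transcripts are alike in part. Of the stretches of 100 bases in the GENCODE 29 transcripts of IFITM2, 18.2% also occur in those of IFITM1 and 1.45% in those of IFITM3, so the division of reads between IFITM1 and IFITM2 is uncertain. The FPKM ratio of IFITM2 to IFITM3 within a library was 0.624, 0.768 and 0.759 in control and 0.714, 0.609 and 0.653 in TAX libraries, an overlapping range.

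LGALS3BP, a secreted glycoprotein, had 3.26 ± 0.398 FPKM in the controls and 2.78 ± 0.284 FPKM after TAX (SD, n = 3 each), with overlap and a log2 fold change of -0.17 (95% interval from -0.38 to 0.04).

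The OAS enzymes make short oligoadenylates that activate RNase L when they meet double-stranded RNA, while OASL lacks this activity and carries ubiquitin-like domains. OASL, on chromosome 12 from 121019111 to 121039242, had 13.6, 15.6 and 13.4 FPKM in the controls and 9.34, 9.93 and 10.2 FPKM after TAX. All TAX values lay below all control values, with a mean 30.8% lower. The log2 fold change of OASL was -0.49 (standard error 0.085, limma, adjusted p = 0.0397), and it was called in 5 of 14 alternative analyses, with adjusted p from 0.0170 to 0.167.

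OAS3 lies in the OAS cluster on the same chromosome, from 112938352 to 112973249, away from OASL. Its FPKM was 11.0, 9.28 and 7.61 in control and 9.29, 9.57 and 9.09 in TAX libraries, so that the TAX libraries lay within the control range. The log2 fold change of OAS3 was 0.02 (95% interval from -0.23 to 0.27), and it was -0.04 after centring. Within a library the FPKM ratio of OASL to OAS3 was 1.24, 1.68 and 1.76 in control and 1.01, 1.04 and 1.12 in TAX libraries, without overlap, and this ratio does not depend on how a library is scaled. OAS1 and OAS2, the other genes of the cluster, were under the filter at 0.142 to 0.451 and 0.264 to 0.475 FPKM in the controls and 0.0756 to 0.175 and 0.149 to 0.396 FPKM after TAX, with overlap in both.

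DDX60 encodes a helicase that acts with RIG-I-like receptors. Its FPKM was 4.26, 4.41 and 3.84 in control and 3.29, 2.77 and 2.85 in TAX libraries. The groups did not overlap, and the log2 fold change was -0.38 (standard error 0.087, adjusted p = 0.127 from limma). DHX58, the gene of LGP2, had 1.42, 1.04 and 1.15 FPKM in the controls and 0.674, 0.959 and 0.929 FPKM after TAX, with a log2 difference of -0.25 (standard error 0.098, adjusted p = 0.435). All 3 TAX values of DHX58 lay under 1 FPKM, so it was tested only because of its control values, and its lack of overlap and its p are a description. IFIH1, the gene of the double-stranded RNA sensor MDA5, had 5.23, 4.34 and 3.59 FPKM in the controls and 3.75, 3.75 and 4.24 FPKM after TAX. Its groups overlapped, with a log2 fold change of -0.12 (95% interval from -0.37 to 0.12).

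ISG15 is joined to target proteins by the conjugating enzyme UBE2L6 and the ligase HERC5, and USP18 removes it. ISG15 itself had 31.3, 42.2 and 37.9 FPKM in the controls and 34.4, 37.6 and 34.1 FPKM after TAX. The TAX values lay within the control range, and the log2 fold change was -0.06 (95% interval from -0.30 to 0.18), or 0.03 without control replicate 2. HERC5, on chromosome 4 from 88457117 to 88506163, had 11.9, 12.2 and 10.8 FPKM in the controls and 9.15, 9.49 and 9.22 FPKM after TAX. Its groups did not overlap, with a mean 20.2% lower, and the log2 fold change was -0.30 (standard error 0.078, adjusted p = 0.209 from limma). After centring or quantile normalization HERC5 and DDX60 were among the genes called lower.

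HERC6, the neighbouring paralog of HERC5, had 6.48, 5.80 and 5.75 FPKM in the controls and 5.35, 5.59 and 5.14 FPKM after TAX. These did not overlap, and the log2 fold change was -0.14 (95% interval from -0.32 to 0.04). The FPKM ratio of HERC5 to HERC6 was at least 1.84 in each control and at most 1.79 in each TAX library. UBE2L6 had 14.3, 13.7 and 11.3 FPKM in the controls and 11.8, 11.3 and 11.0 FPKM after TAX, a log2 fold change of -0.18 (95% interval from -0.40 to 0.03) with control replicate 3 among the TAX values.

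USP18, which also binds the interferon receptor and limits its signal, had 14.9, 12.0 and 10.9 FPKM in the controls and 11.6, 13.3 and 13.7 FPKM after TAX. The groups overlapped, with a log2 fold change of 0.04 (95% interval from -0.21 to 0.29). Of the 100-base stretches of USP18 15.4% also occur in USP41, its near copy, which was listed at 0, 1.26 and 0.611 FPKM in the controls and 2.11, 2.45 and 0.152 FPKM after TAX, so the values of USP18 are uncertain. TRIM25, a ubiquitin ligase that acts on RIG-I, had 32.5, 38.1 and 28.3 FPKM in the controls and 43.5, 34.1 and 42.1 FPKM after TAX. Its log2 fold change of 0.27 was the highest of the 27 (standard error 0.123, unadjusted p = 0.0497 and adjusted p = 0.492 from limma), and TAX replicate 2 lay within the control range. It was 0.17 without control replicate 3 and 0.38 without control replicate 2 or without TAX replicate 2. In each alternative analysis that kept all 6 libraries, TRIM25 had an unadjusted p of at least 0.05 (limma).

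Of the 4 transcription factors 0 had an unadjusted p under 0.05 in the fit as reported (limma). Of all 12359 tested genes, 11106 had an unadjusted p of at least 0.05. STAT2, a subunit of ISGF3, had 14.5, 15.6 and 12.5 FPKM in the controls and 12.8, 12.9 and 13.1 FPKM after TAX. The TAX libraries lay close together, below control replicates 1 and 2 and above control replicate 3. The log2 fold change of STAT2 was -0.12 (95% interval from -0.32 to 0.08). It was -0.20 without control replicate 3 (adjusted p = 0.295 from limma) and -0.05 without control replicate 2. After centring on the library median it was -0.17 (standard error 0.056, adjusted p = 0.272 from limma). IRF9, the DNA-binding subunit of ISGF3, had 1.03, 0.976 and 0.700 FPKM in the controls and 1.65, 0.858 and 1.30 FPKM after TAX, a log2 fold change of 0.24 (95% interval from -0.04 to 0.53). This value was 0.12 without TAX replicate 1 and 0.38 without TAX replicate 2. IRF9 was the lowest of the 4 factors, and 39.1% of its 100-base stretches also occur in AL136295.5 on the same strand, which averaged 3.34 FPKM in the controls and 3.08 FPKM after TAX, so its level is uncertain.

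IRF1, which can act on these promoters without ISGF3, had 6.55, 7.09 and 5.84 FPKM in the controls and 7.02, 6.40 and 6.55 FPKM after TAX, with overlap and a log2 fold change of 0.03 (95% interval from -0.16 to 0.23). IRF7, which drives interferon alpha genes, had 3.70, 4.61 and 2.86 FPKM in the controls and 3.59, 2.25 and 3.26 FPKM after TAX. The spread of IRF7 within each group was wide beside its log2 fold change of -0.23 (95% interval from -0.57 to 0.11), which was -0.08 without TAX replicate 2, -0.09 without control replicate 2 and -0.36 without control replicate 3.

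**Figure D3:**
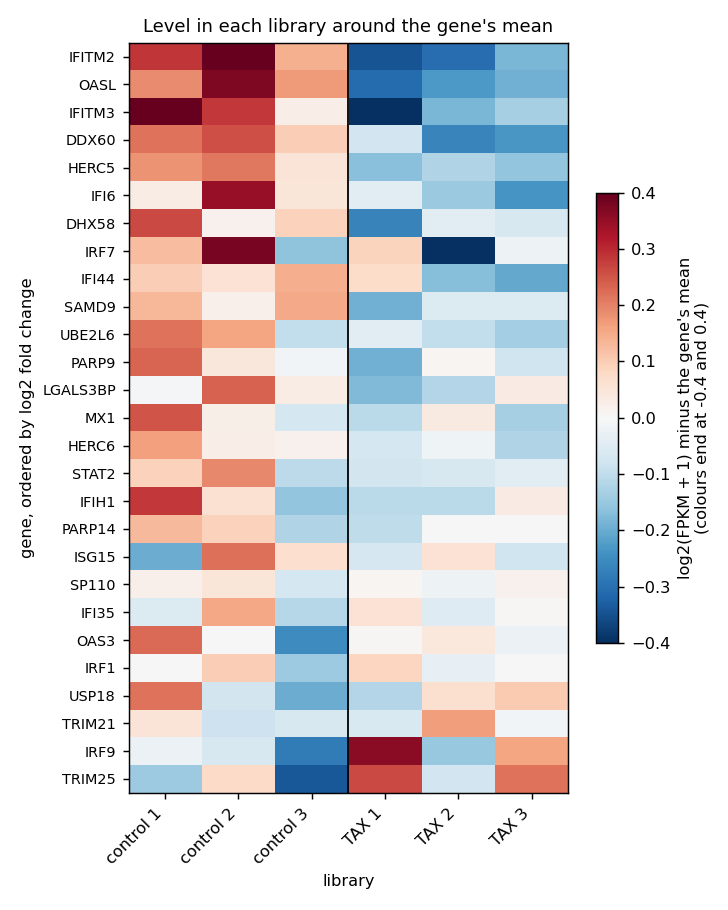
Value of log2(FPKM + 1) in each library minus the mean of the gene over the 6 libraries, for the 27 tested interferon-stimulated genes ordered by log2 fold change (colours end at -0.4 and 0.4). The upper rows, from IFITM2 to DHX58, are above their mean in all 3 control libraries and below it in all 3 TAX libraries, and control replicate 3 is the lowest of the controls in 20 of the 27 rows.

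Among the IFI genes, IFI6, which encodes a small membrane protein, had 14.4, 18.2 and 14.6 FPKM in the controls and 13.6, 12.6 and 11.8 FPKM after TAX. The groups did not overlap, and the log2 fold change was -0.29 (standard error 0.102, adjusted p = 0.383 from limma). Control replicate 2 carried part of it, since without this library the log2 fold change was -0.18. IFI44 had 7.80 ± 0.267 FPKM in the controls and 6.68 ± 0.830 FPKM after TAX (SD, n = 3 each), where TAX replicate 1 lay within the control range, and IFI35, whose protein binds NMI, had 7.80 ± 0.870 and 7.82 ± 0.328 FPKM (SD, n = 3 each). IFI27 lay at 0.762 to 1.43 FPKM over all 6 libraries with overlap. IFI44L, the neighbour of IFI44, had at most 0.0313 FPKM in the controls and was listed at 0 in the 3 TAX libraries.

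Of the antiviral effectors only SAMD9 and MX1 passed the filter. SAMD9 had 1.32 ± 0.114 FPKM in the controls and 1.02 ± 0.109 FPKM after TAX (SD, n = 3 each), without overlap, and its log2 fold change was -0.20 (standard error 0.084, adjusted p = 0.459 from limma). MX1, a dynamin-like GTPase, had 5.48 ± 0.754 and 4.87 ± 0.380 FPKM (SD, n = 3 each), with overlap. MX2, RSAD2 (the gene of viperin), CMPK2 and SAMD9L were all under 0.5 FPKM in every library. In MX2 the 3 control libraries lay at 0.363 to 0.479 and the 3 TAX libraries at 0.298 to 0.315 FPKM, and in RSAD2 at 0.188 to 0.333 and 0.0890 to 0.119 FPKM, without overlap in either gene. Over the 12 genes under the filter, the groups did not overlap in 4, each with the TAX libraries lower (MX2, RSAD2, IFI44L and EPSTI1). Without the filter 4.31% of 20280 genes had all TAX values below all control values. That share includes the genes above the filter and leaves out XAF1, which was at 0 throughout. At such levels a value may rest on few reads, and their number is unknown.

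PARP9, PARP14, TRIM21 and SP110 all overlapped between the groups. PARP9, which acts with the ubiquitin ligase DTX3L, had a log2 fold change of -0.18 (95% interval from -0.38 to 0.03), and PARP14, an ADP-ribosyltransferase, of -0.07 (95% interval from -0.26 to 0.13). TRIM21, a cytosolic antibody receptor, had 3.52, 3.11 and 3.17 FPKM in the controls and 3.18, 3.89 and 3.32 FPKM after TAX. SP110, a nuclear body protein, was the steadiest of the 27, with 2.09 ± 0.129 and 2.09 ± 0.0419 FPKM (SD, n = 3 each) and a 95% interval of the log2 fold change from -0.17 to 0.17. Whether counting used strand is not stated, and 13.3% of the 100-base stretches of SP110, 17.3% of those of IRF1 and 14.0% of those of IFITM3 also lie in transcripts of the opposite strand, so reads of either strand cannot be told apart there.

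The rest of the pathway was followed in lists of 84 further genes, of which 61 were tested. The levels of JAK1, TYK2, IFNAR1 and IFNAR2 in control cells were 27.2 ± 2.94, 19.1 ± 2.45, 24.6 ± 1.25 and 31.3 ± 2.24 FPKM (SD, n = 3 each). After TAX treatment their means were 27.1, 19.4, 24.7 and 31.2 FPKM. In each of the 10 genes listed for receptors and signal transduction the groups overlapped, beside 10147 of all 12359 tested genes. The log2 fold changes of the 10 genes lay from -0.17 to 0.11. Of these 10 genes, 0 had an adjusted or an unadjusted p under 0.05 (limma), where 11106 of all tested genes had an unadjusted p of at least 0.05. All 10 interferon genes listed were under the filter, with IFNB1 at no more than 0.0644 FPKM in the controls and 0.0593 FPKM after TAX.

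Of 5 tested negative regulators 1 was lower at an unadjusted p under 0.05, beside 2.41% of all tested genes, and 0 passed the adjustment. That gene was SOCS3, a feedback inhibitor of JAK kinases, with 7.10 ± 0.464 FPKM in the controls and 5.34 ± 0.277 FPKM after TAX (SD, n = 3 each). Its adjusted p from limma was 0.131. Of 9 tested genes for nucleic acid sensing 2 were higher at an unadjusted p under 0.05, beside 7.73% of all tested genes. These were the adaptors TICAM1 (log2 fold change 0.28) and TRAF3 (0.22), and 0 passed the adjustment. Among 33 other interferon-stimulated genes that were tested, 1 (APOL6, -0.26) was lower and 1 (NLRC5, 0.29) was higher at an unadjusted p under 0.05. By this rule 2.41% of all tested genes were lower and 7.73% were higher. Of the 33 genes 0 passed the adjustment, and their median log2 fold change was 0.02, beside 0.054 in all tested genes. In 26 of these 33 genes the groups overlapped, beside 10147 of all 12359 tested genes. SOCS3, TICAM1, TRAF3, APOL6 and NLRC5 were singled out after their values were seen.

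The IFIT genes, targets of the same response, were lower in 3 of 4 cases at an adjusted p under 0.05 (limma), beside 0.162% of all tested genes. IFIT1, IFIT2 and IFIT3 had log2 fold changes of -0.75, -0.83 and -0.62 (limma, adjusted p = 0.00819, 0.0026 and 0.0114), and IFIT5 had -0.07. Without a filter on low values 0 of the 4 were called, beside 1 of 20280 genes. These values come from the same 6 libraries.

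**Figure D4:**
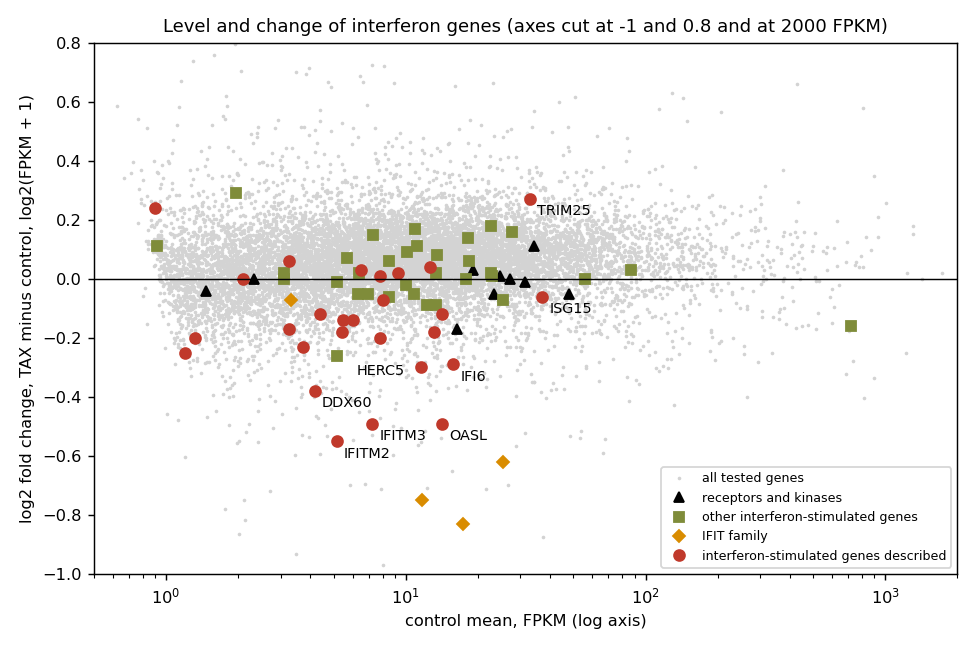
Control mean (FPKM, log axis) against log2 fold change (TAX minus control, on log2(FPKM + 1)) for all tested genes (grey), the interferon-stimulated genes described (red), the IFIT family (orange), 33 other interferon-stimulated genes (green) and 10 receptor and signal transduction genes (black, "receptors and kinases" in the legend). The red points reach from -0.55 to 0.27, the IFIT genes reach -0.83, and the black points stay between -0.17 and 0.11. Genes beyond the axis limits given in the title are not drawn.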

How the data were processed

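RNA sequencing of 3 control and 3 TAX-treated DU145 samples was analysed. The table that the authors deposited for a library gives each gene a value that is read here as FPKM, because the values are decimals with different sums. The submitters' processing notes name HISAT2 2.2.0, StringTie 2.1.2 and GRCh38, and the MSTRG prefix of 3130 identifiers is that of StringTie. The unit, annotation release and filters are not given in the sources used here. No steps of whole reads were found among low values (at most 5.72% of 332 log2 ratios in any bin), so depth is unknown and no counting interval is given.

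From the deposited FPKM, log2(FPKM + 1) was fitted with limma 3.58.1 (R 4.3.3, eBayes with trend, no covariate) over 12359 genes that reached 1 FPKM in 3 or more libraries, with Benjamini-Hochberg adjustment. The fit was also run on simulated normal noise without a shift between libraries, unlike control replicate 3 here, and no result above rests on that run. Intervals of 95% are from the same fit. An exact permutation test of 3 against 3 libraries has 0.1 as its smallest p and was not used. The genes and all lists were chosen with earlier results of these data known. Values of every library are given for genes called at an adjusted p under 0.05, STAT2, IRF9, IRF1 and IRF7, the 5 largest falls and the 5 largest rises, the 5 highest control means, and their paralogs and ISG15 partners. Other genes are given by mean or range, and DHX58 and IFIH1 in full after their values were seen. Gene positions, and stretches of 100 bases shared between transcripts, are from GENCODE 29 (GRCh38), matched by gene name. Some genes of the marker and pathway lists are not reported here. Alternatives were another pseudocount, 2 other filters, rescaling, quantile normalization, centring, limma without trend, a replicate block and leaving out each library.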

Additional observations from a re-analysis of the deposited data

How the results depend on the processing

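Of the counts, the number of the 39 genes called lower at an adjusted p under 0.05 (limma) depended most on the processing. It was 2 as reported, 0 without a filter on low values (20280 genes tested), 1 with a filter of a mean of at least 0.3 FPKM, 4 after quantile normalization, 4 after centring on the library median, 0 with the replicate block, and 0 to 0 when 1 library was left out. The share of all genes called lower was, in the same order, 0.162%, 0.00493%, 0.103%, 0.388%, 0.405%, 0.105% and 0.0647% to 0.121%. Without the filter 10 genes, and with the block 7 genes, were lower at an unadjusted p under 0.05, beside 3.01% and 2.29% of all genes. The number lower at an unadjusted p was 13 after quantile normalization and 15 after centring, in place of 8, while the share of all genes moved from 2.41% to 5.79% and 6.59%. The number of genes without overlap was 14 after centring and 10 to 16 with 1 library left out, in place of 9, while the share of all genes was 9.53% and 4.33% to 13.4%, in place of 3.34%. The highest of these was without control replicate 3. The 3 IFIT genes were called in all alternatives except the analysis without a filter, where 0 of the 84 pathway genes were called lower. The median log2 fold change stayed between -0.199 and -0.106 over the 14 alternatives.

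Directions turned in genes near 0, each with an adjusted p of at least 0.683 (limma) where they did. SP110 was at 0.00 with a pseudocount of 0.1. OAS3 and IFI35 were at -0.01 and -0.02 after rescaling each library to the same sum, at -0.04 and -0.05 after quantile normalization and at -0.04 and -0.05 after centring. IRF1 and USP18 were at -0.02 and -0.02 after quantile normalization and again after centring. With 1 library left out the log2 fold change ranged from -0.05 to 0.09 for IFI35, from -0.03 to 0.02 for SP110, from -0.17 to 0.03 for ISG15, from -0.10 to 0.13 for OAS3, from -0.03 to 0.09 for IRF1, from -0.05 to 0.16 for USP18 and from -0.01 to 0.11 for TRIM21. The cause was not tested. Between same-numbered control and TAX libraries the r of deviations was -0.117, -0.333 and -0.171. Deviations within a group of so few libraries depend on each other. These values therefore cannot show whether same-numbered samples were handled together. Unknown depth limits what can be said of the 12 genes under the filter.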
